A study of Mus musculus with 6 samples.

Results

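The apelin system of the mouse consists of 3 genes in this account: the ligand genes Apln and Apela, and the receptor gene Aplnr. They were taken by their GENCODE symbols from a count table of 55450 genes, and each symbol matched 1 row. The table holds 6 RNA-seq libraries of brain endothelial cells isolated from pups at postnatal day 7. The series title names apelin signalling and Cdc42 activity in arteriovenous malformations of the brain that follow endothelial Rbpj loss, so the comparison asks how the apelin genes differ between the genotypes. One time label reads P0, while all other labels give P7.

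The control group had 3 libraries from Cdh5(PAC)-CreERT2; Rbpjflox/WT mice, with 1 floxed Rbpj allele. The mutant group had 3 libraries from Cdh5(PAC)-CreERT2; Rbpjflox/flox mice, with both alleles floxed. Rbpj encodes the transcription factor that Notch receptors need to switch on their target genes. Both groups carried the tamoxifen-inducible Cre, driven from Cdh5, the VE-cadherin gene, and both were given tamoxifen, 100 µg a dose, on days 1 and 2 after birth. The background was mixed FVB/N and C57BL/6, and the labels say that both sexes were used. RNA of CD31-positive cells from many pups was pooled. One label gives more than 20 animals for each cohort and another gives 13 to 15. Whether each library had a pool of its own is not stated in the labels, so p-values measure the spread between libraries, which may be technical.

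Apelin and the Apela peptide (also called Elabela or Toddler) are secreted ligands of one G protein-coupled receptor, the product of Aplnr. In growing vessels Apln is known from the tip cells that lead a sprout, and Aplnr from venous and capillary endothelium behind them. Apela is best known from early embryos, where it guides heart precursors, and from kidney and placenta. The receptor signals through inhibitory and other G proteins and through beta-arrestins, and it is switched off by receptor kinases.

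Library totals were 75744913 to 82092461 counts, where about 4 units of count stand for 1 read pair. Levels are given in CPM, counts-per-million of a library's total over the tested genes, after scaling between libraries with TMM factors. Rbpj itself was 54.3, 54.3 and 53.8 CPM in control libraries and 47.9, 46.8 and 45.2 CPM in mutant libraries. Every mutant library was below every control library, by a log2 fold change of -0.21 ± 0.042 (SE, adjusted p = 0.0129). This is a weak check of the labels. The gene-level count can cover exons outside the deleted part, the control mice also carried 1 floxed allele, and other cells were present. Why the fall was small was not tested. Mutant library 3 stood apart on the second principal component (18.8% of variance) at -55.6, against 31.2 and 26.2 for mutant libraries 1 and 2. Endothelial markers had summed levels of 12851 to 13203 CPM in control and 12515 to 13470 CPM in mutant libraries, so the labelled cell type was present in all 6.

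Apln was the member with the largest difference. It lies on chromosome X from 48025146 to 48034853 on the minus strand (ENSMUSG00000037010, GRCm38), has 1 annotated transcript of 3 exons and overlaps no exon of another gene. Its coding sequence is shown because the active hormone is its last stretch: the capitals mark the 13 codons of apelin-13, the short C-terminal form that binds the receptor. The coding sequence of Apela stands beside it, with its last 11 codons in capitals, as the other ligand of the same receptor. Both are read 5′ to 3′ from the GENCODE M21 transcripts and end with the stop codon.
Apln: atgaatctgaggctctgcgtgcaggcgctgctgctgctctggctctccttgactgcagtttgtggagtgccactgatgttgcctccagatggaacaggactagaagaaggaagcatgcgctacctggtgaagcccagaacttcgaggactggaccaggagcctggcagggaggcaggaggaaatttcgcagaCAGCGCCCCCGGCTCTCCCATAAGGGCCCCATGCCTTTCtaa
Apela: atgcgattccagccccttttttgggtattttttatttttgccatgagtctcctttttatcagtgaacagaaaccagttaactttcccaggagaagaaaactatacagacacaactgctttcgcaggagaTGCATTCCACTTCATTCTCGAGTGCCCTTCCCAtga
The Apln sequence has 77 codons before the stop and the Apela sequence 54.

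Apln stood at 570.5, 593 and 611 CPM in control libraries 1 to 3 and at 1727, 1774 and 1883 CPM in mutant libraries 1 to 3. The groups were far apart. The lowest mutant library was 2.83 times the highest control library, while libraries of 1 group varied by a coefficient of variation of 3.43% (control) and 4.47% (mutant). The log2 fold change was 1.60 ± 0.044 (SE), with a 95% interval of 1.499 to 1.704; the adjusted p was 2.14e-06 in edgeR (quasi-likelihood). These values rest on 45150 to 50046 counts in control and 137809 to 142011 counts in mutant libraries. In libraries of enriched cells, more cells of a type and more RNA for each cell cannot be told apart.

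**Figure D1:**
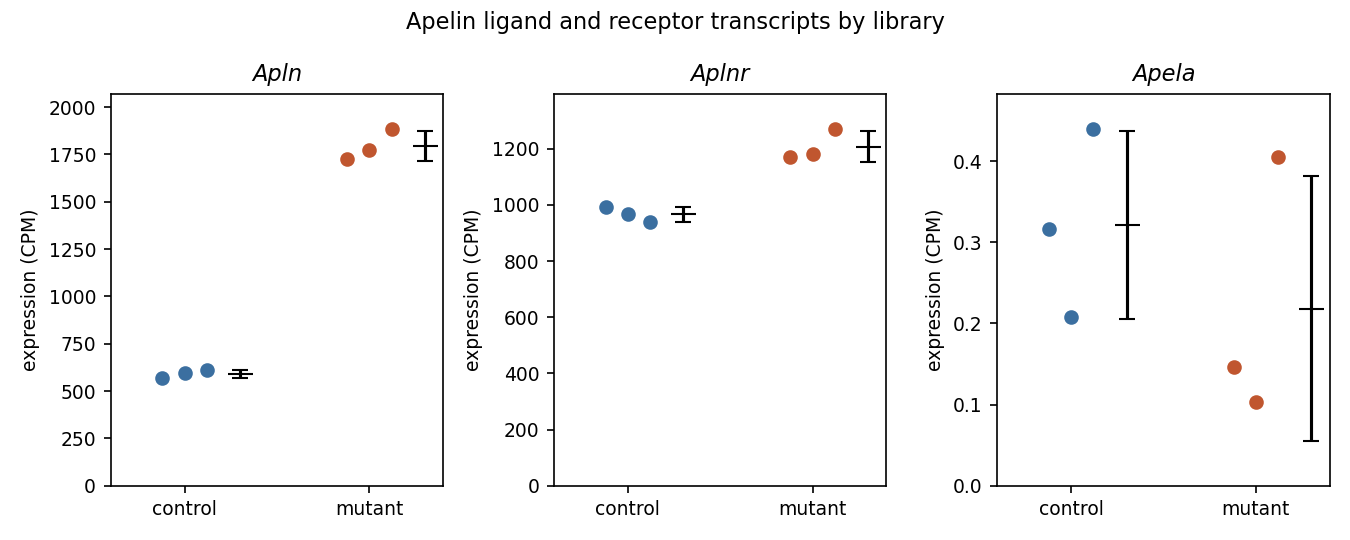
Expression of Apln, Aplnr and Apela in CPM (linear vertical axes from 0, a scale of its own for each gene) in 3 control and 3 mutant libraries. Points are libraries and the black marks are the mean ± SD; the groups are apart for Apln (570.5 to 611 against 1727 to 1883 CPM) and Aplnr, and overlap for Apela.

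Among all 19549 genes tested, 14.4% were called at an adjusted p under 0.05, 7.56% higher and 6.83% lower in the mutant. The groups did not overlap for 34.1% of genes, with mutant libraries above control libraries for 16.8%. Apln had the 11th smallest p-value and ranked 363rd by absolute log2 fold change. By the gain in CPM, 1203, it ranked 2nd of all tested genes. Ahead of it was Sparc, a matrix-binding glycoprotein gene named here after its values were seen, with a gain of 1833 CPM from a far higher start of 7319 CPM. Of the 2290 genes with a group mean of at least 100 CPM, 22.3% were called higher. By rise on the log2 scale Apln ranked 10th of these 2290, behind some genes that were not called. On the scale of level, it moved from rank 249 to rank 65 of the tested genes by CPM per kilobase of exon.

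**Figure D2:**
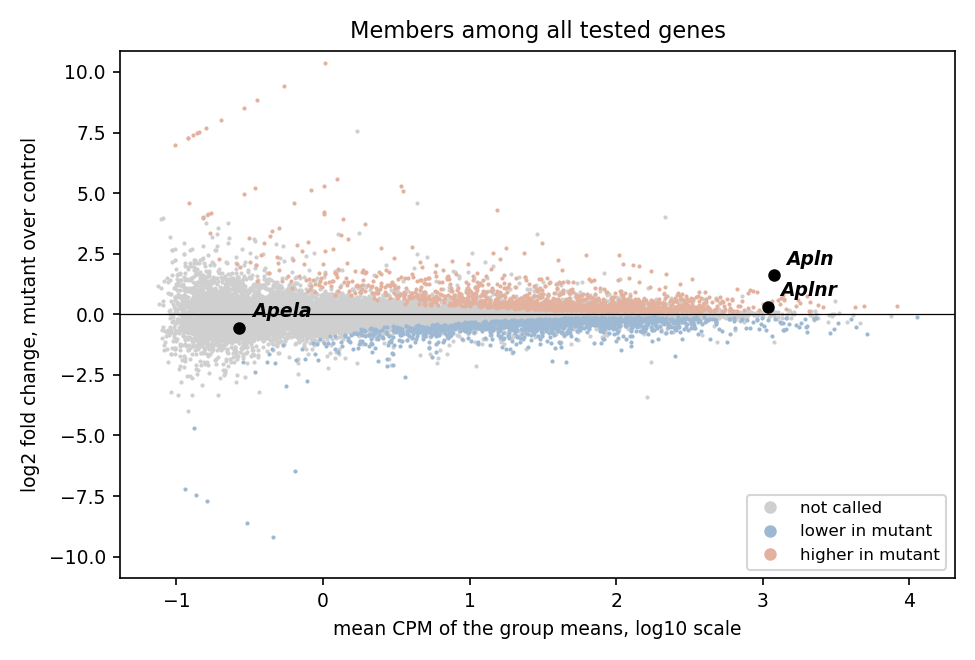
Log2 fold change of mutant over control (vertical) against the mean of the group means in CPM (horizontal, log10 scale) for 19549 tested genes. Grey points were not called, orange were called higher and blue lower; Apln stands apart from genes of its level at 1.60, Aplnr lies at 0.32 and Apela among the low genes at -0.56.

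Because Apln is X-linked and the pools mixed the sexes, sex-linked genes were set beside it. Of 687 tested genes on chromosome X, 8.88% were called higher, and their median log2 fold change was -0.03, against -0.01 over all tested genes. Xist, the RNA that silences an X chromosome in females, was 43.2 to 49.0 CPM in control and 30.8 to 37.5 CPM in mutant libraries (log2 fold change -0.46 ± 0.085 SE, adjusted p = 0.00971). Xist fell while the Y-linked genes Ddx3y, Eif2s3y, Kdm5d and Uty did not pass the test, with log2 fold changes of 0.26, 0.13, 0.01 and 0.08. Xist shares 1980 exon bases with the gene Tsix on the opposite strand, and strand use in counting is not known. The part of the sex mix in the Apln result was not tested.

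The 250 bases before the annotated start of Apln were searched because Rbpj binds DNA and because Apln is a known target of hypoxia-inducible factors. The sequence is RefSeq's (GRCm38.p6), chrX:48034854-48035103 on the minus strand, read 5′ to 3′.
Apln promoter: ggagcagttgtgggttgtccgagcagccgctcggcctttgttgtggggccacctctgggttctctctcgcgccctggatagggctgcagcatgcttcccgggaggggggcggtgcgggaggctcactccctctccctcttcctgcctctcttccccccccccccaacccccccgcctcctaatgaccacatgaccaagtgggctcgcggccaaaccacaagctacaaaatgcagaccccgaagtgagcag
On either strand the window held no RBPJ core TGGGAA and neither of the hypoxia response cores ACGTG and GCGTG, so no letter is in capitals. Of 32851 promoter windows of the same length, 21.6% held TGGGAA and 38.6% held ACGTG or GCGTG. The E-box CACGTG, which contains ACGTG, was in 6.0% of windows and not in that of Apln. The window of Apela held 1 TGGGAA, which starts 194 bases before the gene's start, and none of the other letters. The search says only which letters these windows hold. Aplnr had no entry among the promoters used here.

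Aplnr, the receptor gene, also rose, by a smaller factor. Its plus-strand locus spans 85136225 to 85139923 on chromosome 2 (ENSMUSG00000044338, GRCm38) and overlaps no exon of another gene. Its level was 993, 968 and 939 CPM in control libraries and 1170.0, 1182 and 1269.6 CPM in mutant libraries. All mutant libraries were above all control libraries, the nearest pair by a factor of 1.18. The log2 fold change was 0.32 ± 0.041 (SE), with a 95% interval of 0.22 to 0.42 and an adjusted p of 0.00198, which is a 1.25-fold rise. Of all tested genes it had the 39th largest gain in CPM, 241, but ranked 6398th by absolute log2 fold change. Among the 2290 genes with a group mean of at least 100 CPM, its rise ranked 293rd on the log2 scale. Tested against a minimum change of 1.5-fold with glmTreat, Aplnr was not called (adjusted p = 1), while Apln was (adjusted p = 1e-05).

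The ratio of ligand to receptor transcripts turned over between the groups. Per kilobase of exon, Apln stood at 181, 188 and 194 CPM per kb in control and 548, 563 and 598 CPM per kb in mutant libraries. Aplnr stood at 268, 262 and 254 CPM per kb in control and 316, 319 and 343 CPM per kb in mutant libraries. The receptor transcript was therefore the more abundant in each control library and the ligand transcript in each mutant library. The ratio of Apln to Aplnr, per kb, was 0.675, 0.72 and 0.765 in control libraries and 1.73, 1.76 and 1.74 in mutant libraries. Its log2 differed by 1.28 between the group means, with SDs of 0.09 (control) and 0.012 (mutant), a 2.43-fold difference that does not depend on library scaling. An exact two-sided permutation test over 3 against 3 libraries gave p = 0.1, the smallest this design allows.

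Apela was close to the limit of detection. It lies on chromosome 8 from 65028417 to 65037336 on the minus strand (ENSMUSG00000079042, GRCm38), and 297 bases of its exons are shared with the same-strand transcript Gm45886, which was at 0 in all libraries. Counts of Apela were 25, 17 and 36 in control and 12, 8 and 30 in mutant libraries, or about 2 to 9 read pairs in each library. Levels were 0.316, 0.208 and 0.439 CPM in control and 0.146, 0.103 and 0.405 CPM in mutant libraries, so the groups overlapped. The log2 fold change of -0.56 had a 95% interval of -2.06 to 0.94 (adjusted p = 0.655), so a difference was not detectable at this depth. Mutant library 3 held most of the mutant counts, and without it the log2 fold change was -1.35 (adjusted p = 0.273). Per kilobase Apela stood at 0.103 to 0.438 CPM per kb. In both groups it lay below Apln and Aplnr by far more than the spread between libraries.

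The wider pathway was followed in 53 genes placed in 9 groups by role, of which 52 were tested. Of these, 8 were higher and 9 lower, against 7.56% and 6.83% of all tested genes, and the median log2 fold change was 0.07 against -0.01 over all tested genes. Nothing particular to the list is read from these counts.

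**Figure D3:**
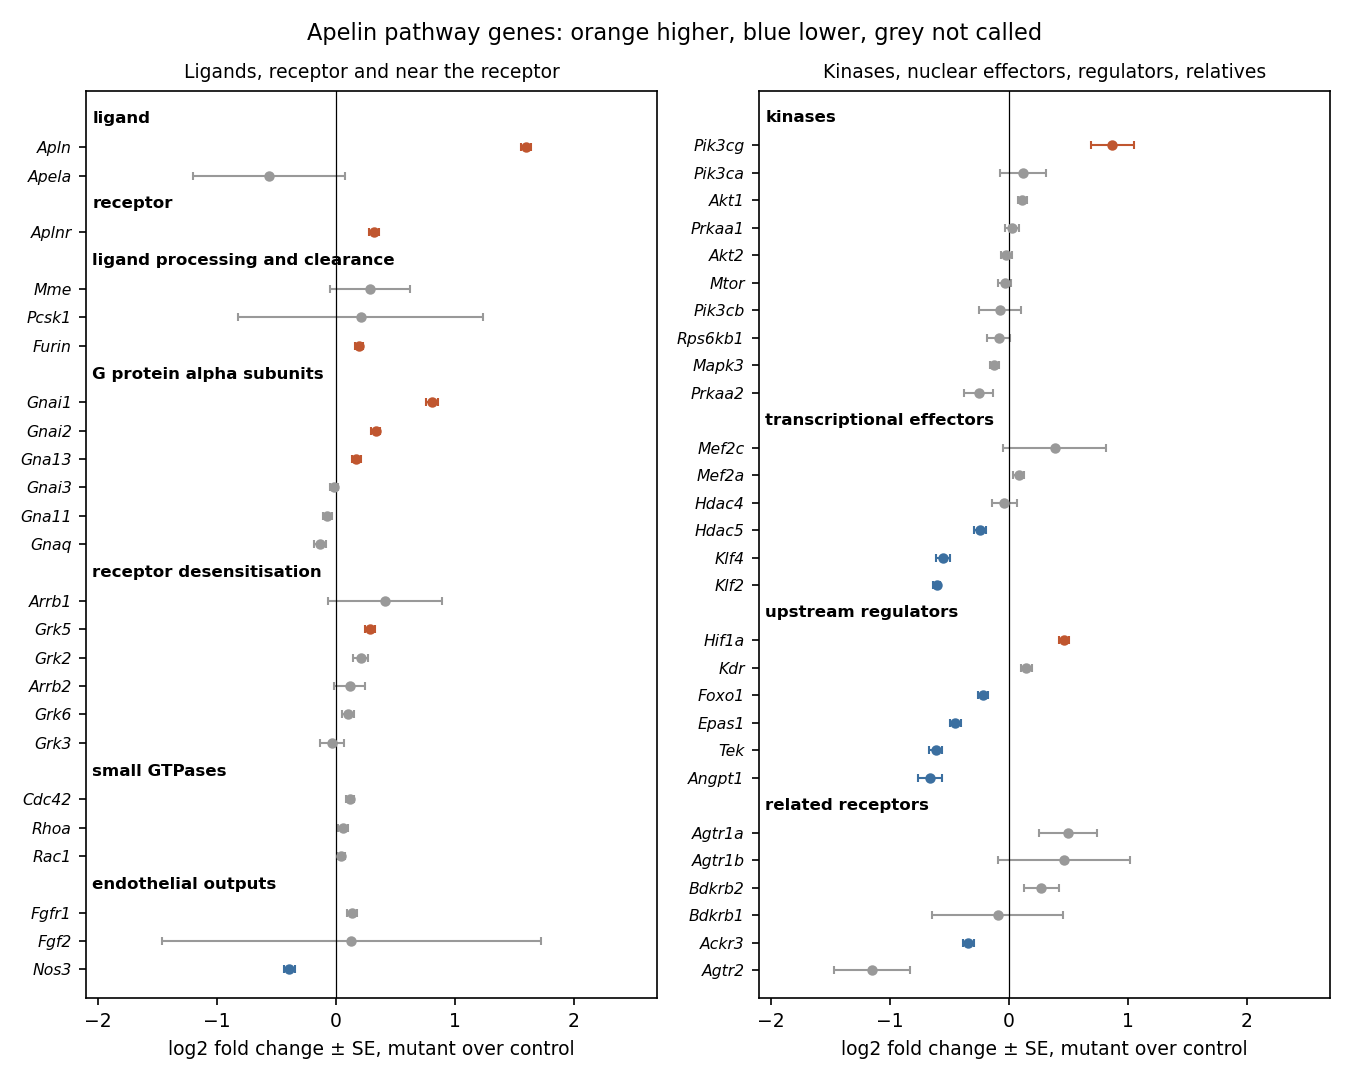
Log2 fold change ± SE of mutant over control (horizontal) for the 3 members and 49 pathway genes, grouped by role. Orange genes were called higher, blue lower and grey not called; Gnai1 and Pik3cg lie well to the higher side, and Angpt1, Tek and Klf2 the largest called falls.

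Of 4 tested genes for the processing and clearance of the ligands, 2 were higher and none lower, against 7.56% and 6.83% of all tested genes. Furin, a protease that cuts the apelin precursor, rose from 174 ± 4.69 to 199 ± 1.48 CPM (SD, n = 3; log2 fold change 0.19 ± 0.033, adjusted p = 0.00768); an antisense gene overlaps it. The apelin-cleaving neprilysin gene Mme (0.28) and the convertase gene Pcsk1 (0.21) were below 6 CPM in every library and did not pass the test. Klkb1, plasma kallikrein, had 19 counts in mutant library 2 and 0 in the others and was not tested. It shares 2267 exon bases with the same-strand gene Gm45753, so reads may have been assigned to either gene.

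Of 6 genes for G protein alpha subunits, 3 were higher and none lower, against 7.56% and 6.83% of all tested genes. Gnai1, an inhibitory subunit, was 39.5, 38.0 and 39.1 CPM in control and 65.8, 66.2 and 72.3 CPM in mutant libraries (log2 fold change 0.81 ± 0.051 SE, adjusted p = 6.6e-05). Gnai2, a second inhibitory subunit, rose from 1500.2 ± 27.0 to 1891 ± 67.5 CPM (SD, n = 3; log2 fold change 0.33, adjusted p = 0.000701). The groups of both genes were apart, whereas Gnai3 (-0.02), Gnaq (-0.13) and Gna11 (-0.07) did not pass the test. For Gnaq the adjusted p was 0.0361 without mutant library 3. Gna13, which links receptors to the cytoskeleton and overlaps an antisense gene, had a log2 fold change of 0.17 (adjusted p = 0.02). That call was lost when control library 2 (0.0552), control library 3 (0.0601) or mutant library 2 (0.0714) was left out, and with the replicate numbers as a block (0.0692).

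Of 6 genes that switch the receptor off, 1 was higher and none lower, against 7.56% and 6.83% of all tested genes. This was the receptor kinase gene Grk5, which rose from 82.8 ± 2.59 to 101 ± 3.21 CPM (SD, n = 3; log2 fold change 0.29, adjusted p = 0.00336). The beta-arrestin gene Arrb1 did not pass the test: control library 1 stood at 21.6 CPM, apart from the 65.3 to 70.6 CPM of the other 5 libraries. Arrb2 (0.12), Grk3 (-0.04), Grk6 (0.10) and Grk2 (0.21) did not pass either. For Grk2 the adjusted p was 0.0779. It was under the threshold in 3 of 16 alternatives, among them 0.0438 without mutant library 1.

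Of 12 kinase genes 1 was called, against 14.4% of all tested genes. It was Pik3cg, a phosphoinositide 3-kinase subunit activated by G proteins and known mainly from leukocytes, at 33.7, 25.9 and 20.4 CPM in control and 47.7, 48.3 and 50.1 CPM in mutant libraries (log2 fold change 0.87 ± 0.181 SE, adjusted p = 0.0306). The groups were apart, but the call was lost when control library 2 (0.113) or any mutant library (0.0921, 0.0941 and 0.0988) was left out. It was also lost without the low-count filter (0.0631) and with the block (0.0655). Leukocyte and platelet markers had a summed level of 31.9 to 35.2 CPM in control and 34.1 to 38.8 CPM in mutant libraries, with none of the 6 called. Microglia markers summed to 1248 to 1276 CPM in control and 988 to 1019 CPM in mutant libraries. Of these 7 markers 5 were lower, against 6.83% of all tested genes. Which cells the Pik3cg counts came from was not tested. The extracellular signal-regulated kinase gene Mapk3 (-0.12) and the Akt genes Akt1 (0.11) and Akt2 (-0.02) did not pass the test.

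The small GTPase genes Cdc42 (0.12), Rac1 (0.04) and Rhoa (0.06) did not pass the test. Cdc42, a switch of cell polarity named in the series title, was 751 to 785 CPM in control and 817 to 857 CPM in mutant libraries. Its adjusted p was 0.0512, and between 0.064 and 0.157 with any 1 library left out; it was under the threshold in 8 of 16 alternatives, between 0.0168 and 0.0470. Rac1 and Rhoa share exon bases with genes on the opposite strand.

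Of 6 genes for nuclear effectors of the receptor, 3 were lower and none higher, against 6.83% and 7.56% of all tested genes. Klf2, a flow-responsive transcription factor gene that lies downstream of Aplnr and Mef2 factors in endothelium, was 301 to 308 CPM in control and 198 to 203 CPM in mutant libraries (log2 fold change -0.61 ± 0.030 SE, adjusted p = 2.39e-05). Its relative Klf4 was 184 to 199.7 CPM in control and 122 to 139 CPM in mutant libraries (-0.55 ± 0.056, adjusted p = 0.000606). The groups of both genes were well apart. Hdac5, a histone deacetylase gene of the same axis, had a log2 fold change of -0.24 (adjusted p = 0.0173), a call lost on leaving out control 1, control 2, mutant 1 or mutant 2 (0.0793, 0.0766, 0.0637 and 0.0732). With the replicate numbers as a block it was also lost (0.0644). Mef2a (0.08), Mef2c (0.39) and Hdac4 (-0.04) did not pass the test.

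Of 3 endothelial output genes 1 was lower, against 6.83% of all tested genes. This was Nos3, the endothelial nitric oxide synthase. It was 535 to 558 CPM in control and 403 to 442 CPM in mutant libraries (log2 fold change -0.39 ± 0.043 SE, adjusted p = 0.000852); Atg9b and an antisense gene overlap it. Fgfr1 (0.14, adjusted p = 0.0715) and Fgf2, at most 2.60 CPM in any library, did not pass the test.

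Of 6 regulators placed upstream of Apln, 1 was higher and 4 lower, against 7.56% and 6.83% of all tested genes. Hif1a, the inducible subunit of a hypoxia factor known to switch on Apln, was 169 to 176 CPM in control and 229 to 249 CPM in mutant libraries (log2 fold change 0.46 ± 0.042 SE, adjusted p = 0.000347). Epas1, which encodes the HIF-2 alpha subunit common in endothelium, fell from 1932 ± 45.8 to 1415 ± 83.2 CPM (SD, n = 3; -0.45, adjusted p = 0.000623). The 2 hypoxia factor genes thus went opposite ways, each with groups that did not overlap. Tek, the angiopoietin receptor Tie2, was 598 to 618 CPM in control and 378 to 433 CPM in mutant libraries (-0.62 ± 0.055, adjusted p = 0.000346). Its ligand gene Angpt1 fell from 7.39 to 4.66 CPM (-0.66 ± 0.103, adjusted p = 0.00459). Foxo1, a transcription factor gene that the same receptor restrains, had a log2 fold change of -0.22 (adjusted p = 0.0141), and that call was lost on leaving out control 2, mutant 1 or mutant 2 (0.071, 0.0538 and 0.0707). Kdr, the main VEGF receptor gene, had 0.15 (adjusted p = 0.0781). Its adjusted p was under the threshold in 3 of 16 alternatives, between 0.00468 and 0.0445. Hif1a, Foxo1 and Angpt1 overlap antisense genes, and Hif1a also shares 148 exon bases with the same-strand gene Gm49321.

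Of 6 receptor genes related to Aplnr, 1 was lower and none higher, against 6.83% and 7.56% of all tested genes. Per kilobase of exon, Aplnr had means of 261 CPM per kb (control) and 326 CPM per kb (mutant), and Ackr3, an atypical chemokine receptor gene, the highest of the 6 relatives, had 19.5 and 15.4 CPM per kb. The level of Ackr3 was 62.2 to 67.3 CPM in control and 49.4 to 53.5 CPM in mutant libraries, and it fell (log2 fold change -0.34 ± 0.050, adjusted p = 0.00374). The angiotensin receptor genes Agtr1a (0.50), Agtr1b (0.46) and Agtr2 (-1.15) stayed below 2 CPM in every library and did not pass the test. For Agtr2 the adjusted p was 0.0522. It was under the threshold in 7 of 15 alternatives, among them 0.0154 without mutant library 3. The bradykinin receptor genes Bdkrb1 (-0.09) and Bdkrb2 (0.27) were not called either.

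Apln is known as a tip cell gene, and the other genes of a tip cell list mostly rose too. Of 15 tested, 12 were higher and 2 lower, against 7.56% and 6.83% of all tested genes, with a median log2 fold change of 0.53. The largest changes were in Adm, the gene of the vasodilator peptide adrenomedullin (2.44), Trp53i11 (1.78), the Tie2 ligand gene Angpt2 (1.67) and the urokinase receptor gene Plaur (1.35). The genes that fell were Igfbp3 (-0.64) and the netrin receptor gene Unc5b (-0.47), both named after their values were seen. The list was drawn up with earlier results of these data known, so its direction is not independent evidence. The share called also depends on level: of the 2290 genes with a group mean of at least 100 CPM, 22.3% were called higher. Listed genes such as Nid2 and Mcam reached that level.

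Venous genes, the class in which Aplnr is usually placed, were called in both directions. Among 12 tested, 2 rose, 3 fell and 7 were not called, against 7.56% higher and 6.83% lower of all tested genes, and the median log2 fold change was -0.08. The largest changes among them were the adhesion molecule gene Vcam1 (-0.88), Tmsb10 (0.51), the amino acid transporter gene Slc38a5 (-0.49) and the endothelial sialomucin gene Emcn (0.47). The venous transcription factor gene Nr2f2 (-0.18) and the ephrin receptor gene Ephb4 (-0.31) did not pass the test. Vcam1, Nr2f2, Ephb4, Mef2a, Hdac4, Fgfr1 and Fgf2 share exon bases with a gene on the opposite strand, from which their reads cannot be told apart if strand was not used in counting.

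**Figure D4:**
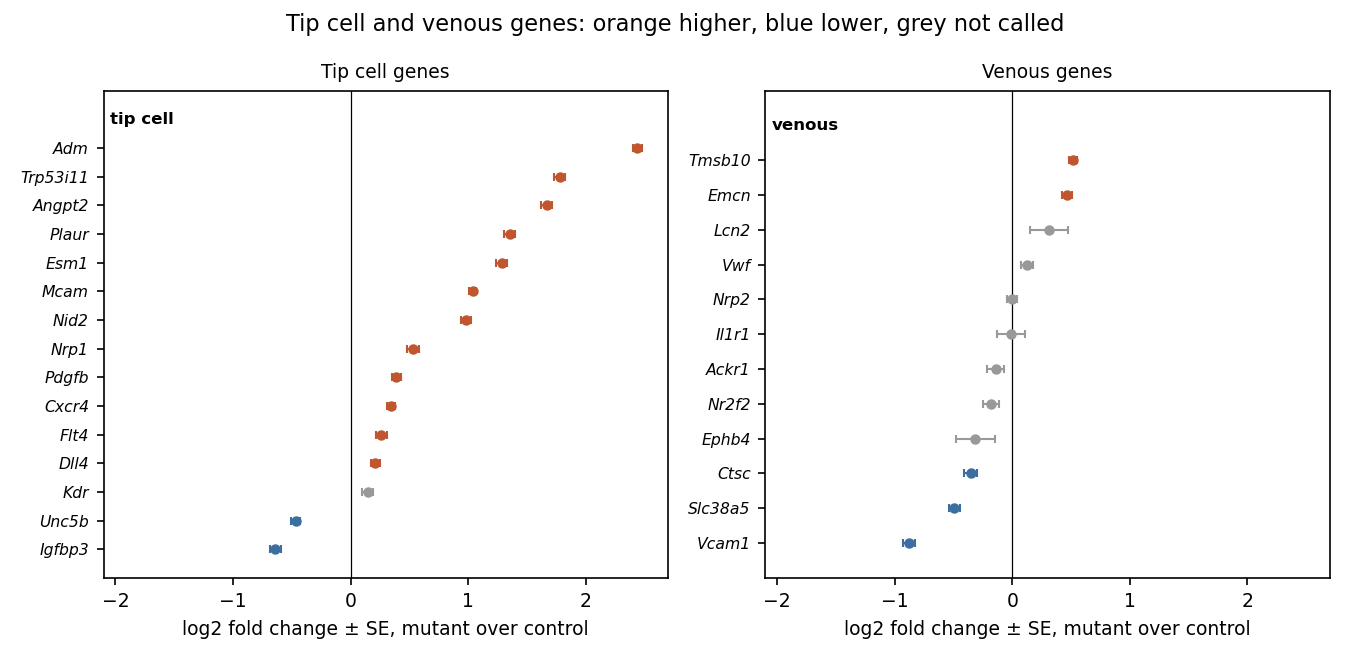
Log2 fold change ± SE of mutant over control (horizontal) for 15 tip cell genes and 12 venous genes. Orange genes were called higher, blue lower and grey not called. Of the tip cell genes 12 were called higher, while the venous genes are spread from -0.88 to 0.51.

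Markers of other cells were set beside these values, where 7.56% of all tested genes were called higher and 6.83% lower. Smooth muscle markers were lower in 4 of 4 cases (summed level 270 to 295 CPM in control, 106 to 125 CPM in mutant) and erythroid markers in 5 of 5 (6971 to 7176 against 4662 to 4957 CPM). Microglia markers were lower in 5 of 7 cases (1248 to 1276 against 988 to 1019 CPM) and fibroblast markers in 2 of 6 (801 to 908 against 529.9 to 702 CPM). Astrocyte markers were lower in 1 of 6 (451 to 502 against 235 to 363 CPM), and pericyte markers were higher in 4 of 8 and lower in 1 (3839 to 3931 against 4087 to 4208 CPM). Neuron markers (167 to 183 against 167 to 196 CPM) were lower in 1 of 6, and oligodendrocyte markers (30.6 to 31.9 against 32.9 to 41.7 CPM) were higher in 2 of 5 and lower in 1. No marker was at 0 in all libraries. Of 12 endothelial markers 3 were higher, among them Pecam1 (0.41), the CD31 antigen on which the cells were selected, and 3 lower. With libraries scaled to the summed endothelial markers, the log2 fold change was 1.63 for Apln and 0.34 for Aplnr. This scaling shifts all genes of a library alike, and the part of the cell mix in the results was not tested.

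Last, the genes whose values over the 6 libraries lay nearest to each member were sought among 11737 other genes with a mean of at least 5 CPM. The measure was the root mean square distance of log2 CPM after centring on the control mean, which weighs the size of the difference between groups most. Nearest to Apln was Angpt2 (distance 0.057), at 103, 103 and 108 CPM in control and 333, 319 and 347 CPM in mutant libraries. Lgals3, Pde4b and Kcnj15 followed at distances of 0.070 to 0.098. Nearest to Aplnr were Ammecr1, Paqr4, Arhgef5, Ddx58 and Actr2, at distances of 0.023 to 0.025. Kcnj15, Paqr4 and Arhgef5 share exon bases with a gene on the opposite strand.

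**Figure D5:**
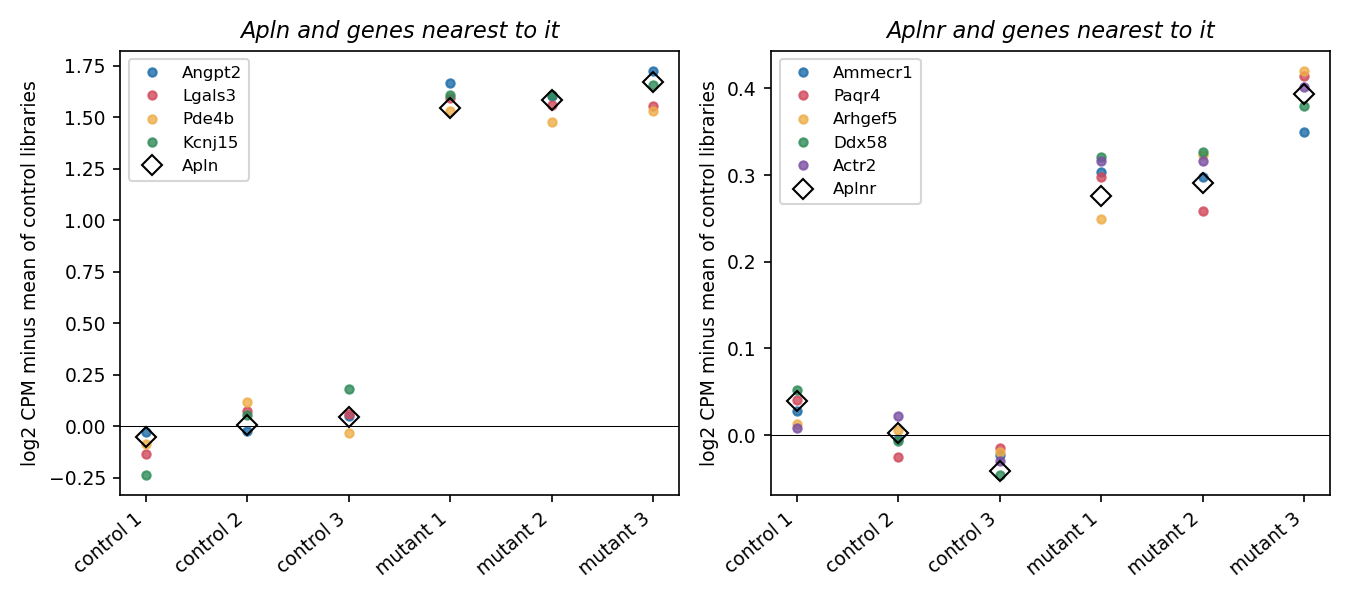
Log2 CPM minus the mean of the control libraries (vertical) in the 6 libraries (horizontal) for Apln and Aplnr (open diamonds) and the genes nearest to each (dots), 4 for Apln and 5 for Aplnr. Apln and its nearest gene Angpt2 lie within a root mean square distance of 0.057; the panels have different vertical scales.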

How the data were processed

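The deposited gene table holds estimated counts, deposited by the authors as whole numbers that were not normalized. A second deposited table has the count of reads before and after filtering and, in percent, the valid share, base quality and GC content, as its header words them. The submitters' processing notes name cutadapt 1.10, FastQC 0.10.1, HISAT2, StringTie 1.3.4, edgeR and the build GRCm39, with no roles. Annotation and strand use in counting: not given in the sources used here. The table has 55450 identifiers, and all match GENCODE M21, whose GRCm38 coordinates are printed. Low counts pile up at multiples of 4 (1118 to 1190 genes at 4, 316 to 365 at 3), and totals were 1.51 to 1.53 times the valid reads.

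Genes passing filterByExpr were compared with the quasi-likelihood test of edgeR 4.0.16 in R 4.3.3. The fit was robust, with TMM factors of 0.978 to 1.009 and group as the only term. A run of this fit on simulated data drew independent counts, so it does not cover libraries of a shared pool. Benjamini-Hochberg adjustment ran over the 19549 tested genes, and called means an adjusted p under 0.05. The design foresaw raw counts; the estimates were already whole, so the same test was used. CPM were computed with TMM scaling, and CPM per kb by the union of exons. Libraries of 1 group differed by 1.82 to 2.62 times the sampling expectation (median chi-square of counts over 4) and none were merged. Named genes were the members, all pathway genes, the 4 largest called changes of the tip cell and venous lists, and the 5 nearest patterns of Apln and Aplnr. Some of these genes are not reported here and were left out of the figures, but stay in the counts. Others were named for their place in a count, as markers or as sex-linked genes. Members and lists were chosen with earlier results of these data known. Alternatives were other scalings and filters, DESeq2 1.42.0, limma-voom 3.58.1, glmTreat, a replicate block, counts divided by 4 (chosen after seeing the data) and each library left out.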

Additional observations from a re-analysis of the deposited data

How the results depend on the processing

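Apln stayed called in all 16 alternatives, with log2 fold changes of 1.57 to 1.63, and Aplnr in 15, with 0.29 to 0.35. Against a minimum change of 1.5-fold (glmTreat) Aplnr, at 0.32, was not called, and calls fell to 291 of all genes (from 2812), 2 pathway genes (from 17), 7 tip cell genes (from 14) and 1 venous gene (from 5). With 1 library left out, called genes numbered 1907 to 2395. Apela was not called in any of the 14 alternatives that tested it, with -0.22 to -1.35; the stricter filter and counts divided by 4 left it untested. The difference of log2 ratios of Apln to Aplnr was 1.235 to 1.325 with 1 library left out, where the exact p was again 0.1. With the replicate block it was 1.28 (exact p = 0.25, the smallest that 3 pairs allow), Apln stayed called (adjusted p = 0.000121), Aplnr 0.32 (adjusted p = 0.0147) and 14 pathway genes were called. The titles do not say that the numbers pair libraries, so the main fit had no block. Deviations of same-numbered libraries, computed afterwards, had correlations of -0.023 to 0.023. Depth limits Apela and the other genes near 0 CPM.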
